A study of Homo sapiens with 2 samples.

Results

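The intervals of an RFX6 ChIP-seq peak list at 36 nuclear genes of the tricarboxylic acid (TCA) cycle, of pyruvate entry into the mitochondrion and of its control were examined. The genes were given as a fixed list, and all 36 were found among 20037 protein-coding genes. MHCC-97H, an established line of human hepatocellular carcinoma (HCC), was made to overexpress HA-tagged regulatory factor X6 (RFX6), a DNA-binding transcription factor. Chromatin was precipitated with an antibody against the tag in 1 library, and 1 input library of the same line without precipitation completed the series. No processed file of the input and no precipitation without HA-RFX6 was used here, so a general attraction of precipitated chromatin to promoters and RFX6 binding cannot be told apart. As no group had a replicate and the depth of reads is unknown, the values carry no replicate error and no test. The list held 5019 distinct intervals on chromosomes 1 to 22 and X, with a whole-number score whose meaning is not stated. The score ranged from 13 to 170, with a median of 30 and quartiles of 22 and 39, and it was used only to rank intervals within the list. Coordinates are given in GRCh38. The submitters' processing notes name GRCh37, but 60.8% of the intervals had their midpoint within 1 kb of a protein-coding gene end in the GRCh38 table.

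Pyruvate from glycolysis enters the mitochondrion through the carrier formed by MPC1 and MPC2. There it is oxidised to acetyl-CoA by the pyruvate dehydrogenase complex or carboxylated to oxaloacetate by pyruvate carboxylase. Kinases (PDK) switch the complex off by phosphorylation and phosphatases (PDP) switch it on, and in tumour cells the kinases are known for directing pyruvate towards lactate. Acetyl-CoA is then oxidised in the TCA cycle, and citrate, malate and 2-oxoglutarate can leave or enter the cycle for lipid synthesis, NADPH production and glutamate metabolism.

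An interval was found at 15 of the 36 genes, that is, with its midpoint in the gene or within 1 kb of a gene end. Among all protein-coding genes, 19.5% had such an interval. At 14 of the 36 genes (38.9%, 95% Wilson interval 24.8% to 55.1%, which covers the counting of genes only), an interval lay within 1 kb of a gene end, compared with 15.5% of all protein-coding genes. The remaining gene, ACLY, had an interval in the body only, a class that held 4.06% of all protein-coding genes. These shares were not tested against each other, since genes are not replicates and the list was chosen with earlier results of these data known.

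By role, 6 of 11 genes of pyruvate entry and its control, 4 of 16 cycle enzymes, and 5 of 9 enzymes of branches, cytosolic counterparts and parallel reactions had an interval. The share of all protein-coding genes with an interval was 19.5%. The interval was at a gene end in 6, 4 and 4 genes of these groups, respectively, compared with 15.5% of all protein-coding genes. The Wilson intervals of these gene-end shares ran from 28.0% to 78.7% in the first group and from 10.2% to 49.5% in the second. They overlapped broadly, but their limits cover the counting of genes only and do not serve as a test. The role groups were not tested against each other or against all protein-coding genes.

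**Figure D1:**
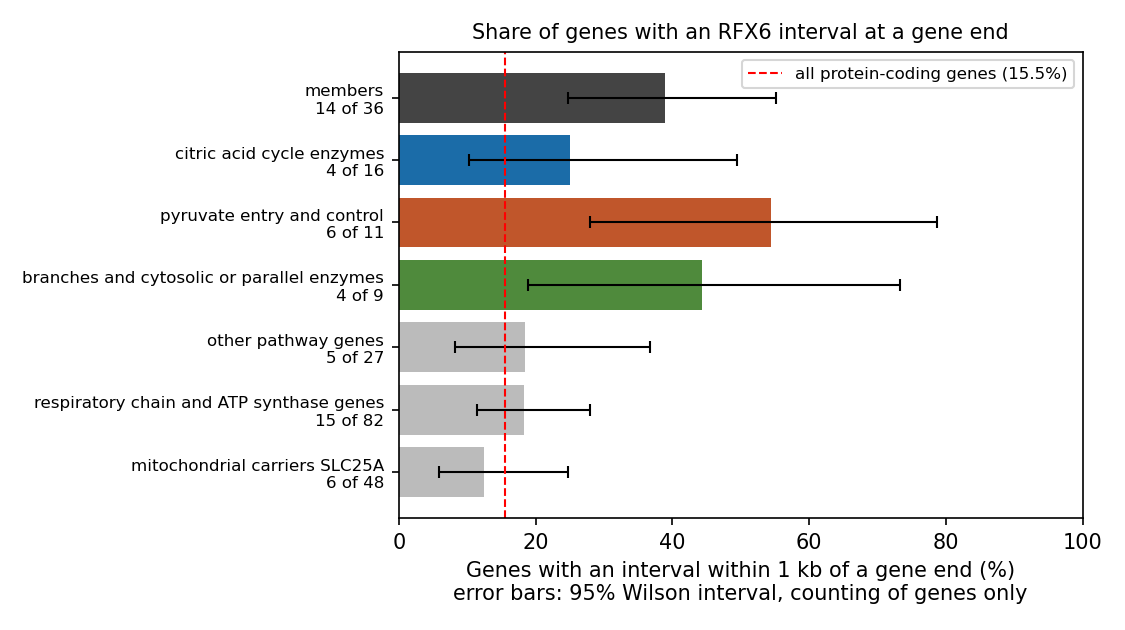
Bars show the percentage of genes with an interval within 1 kb of a gene end for the 36 genes, for their role groups and for comparison sets, error bars give the 95% Wilson interval (counting of genes only) and the dashed line marks all protein-coding genes. The 36 genes reached 38.9% (14 genes) against 15.5% of all protein-coding genes, and the group of pyruvate entry and control reached 54.5% (6 of 11).

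The gene with the highest score was PDK1, a kinase that inhibits the pyruvate dehydrogenase complex and a known target of hypoxia signalling. Its interval was 926 bp wide, at chr2:172555563-172556488, and was listed on 4 lines with scores from 66 to 89. By its highest score it ranked 26 of 5019. It began 190 bp and ended 1115 bp inside the gene from the annotated start, and it overlapped the antisense gene PDK1-AS1. PDK2, a kinase of the same complex, had an interval of score 34 at chr17:50095177-50095649. This interval lay from 440 to 912 bp inside the gene, with an end of the non-coding gene LOC124904024 within 1 kb. Both kinases thus had their interval downstream of the start, with midpoints 652.5 bp (PDK1) and 676 bp (PDK2) from it. Over the whole list, 58.8% of the intervals at a gene's start also had their midpoint downstream. PDK3 and PDK4 had none, and their nearest intervals were 439 kb and 927 kb away. On chromosome X, which carries PDK3, 2.95% of coding genes had an interval at a gene end. The opposing phosphatases PDP1 and PDP2 and the regulatory subunit PDPR, 3 genes in all, had none. Among all protein-coding genes 19.5% had an interval, and sets of this size are too small to be set against that share.

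Both subunits of the mitochondrial pyruvate carrier had an interval, with different scores. At MPC2, an interval of 760 bp at chr1:167936075-167936834 had scores of 17 and 54 on its lines, and its highest score ranked 500 of 5019. It lay from 838 to 79 bp before the annotated start of MPC2, which is 1076 bp inside the gene's outer end, and overlapped DCAF6. At MPC1, the interval at chr6:166382870-166383157 had a score of 17 and spanned the start of the gene, and only 6.81% of the list scored lower. It was also within 1 kb of an end of MPC1-DT, a divergent non-coding transcript. With a score of at least 20, the MPC1 interval was lost and only MPC2 kept one. Of all protein-coding genes 19.5% had an interval, and 2 genes are too few to be set against that share.

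At PC, pyruvate carboxylase, which refills the cycle with oxaloacetate, an interval of 320 bp at chr11:66958124-66958443 had a score of 40 and spanned the annotated start. PDHX encodes the subunit that anchors the E3 enzyme in the pyruvate dehydrogenase complex. Its interval, at chr11:34916235-34916625, had scores of 15 and 22 and also spanned the annotated start. The same interval overlapped APIP, and the end of APIP was the nearer one, so it cannot be assigned to PDHX alone.

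Among the cycle enzymes, SDHA, IDH3A, OGDH and CS had an interval, all with scores above the list median. SDHA encodes the flavoprotein of succinate dehydrogenase, the enzyme shared by the cycle and the respiratory chain. Its interval of 518 bp at chr5:218239-218756 had a score of 53 (rank 521) and spanned the start, with an end of CCDC127 within 1 kb. An interval of score 95 (rank 17), at chr5:271382-272007, lay 2636 bp beyond the far end of SDHA and was nearest to an end of PDCD6, so it was not counted for SDHA. IDH3A encodes the catalytic subunit of the NAD-dependent isocitrate dehydrogenase. Its interval of 644 bp at chr15:78149248-78149891 had a score of 47 and spanned the start, with an end of the non-coding gene LOC124903534 within 1 kb. OGDH encodes the E1 component of the 2-oxoglutarate dehydrogenase complex. Its interval at chr7:44606555-44607024 had scores of 21 and 45, and its midpoint was 162.5 bp inside the low-coordinate end of the gene. CS encodes citrate synthase, which opens the cycle. Its interval of 201 bp at chr12:56299762-56299962 had a score of 38 on both of its lines and lay from 368 to 568 bp inside the gene. Another interval, of score 51 (rank 581) at chr12:56266824-56267450, lay 4249 bp beyond the far end of CS. That interval was nearest to an end of COQ10A and was not counted for CS.

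The other subunits of these enzymes had none. For succinate dehydrogenase, 1 of 4 subunits had an interval (SDHA), while SDHB, SDHC and SDHD had none. For the NAD-dependent isocitrate dehydrogenase it was 1 of 3 (IDH3A, not IDH3B or IDH3G), and for the 2-oxoglutarate dehydrogenase components with the relative OGDHL it was 1 of 3 (OGDH, not OGDHL or DLST). None of the 3 subunits of succinyl-CoA ligase (SUCLA2, SUCLG1 and SUCLG2) had an interval, nor did FH, the fumarase, or MDH2, the mitochondrial malate dehydrogenase. Among all protein-coding genes 19.5% had an interval, and complexes of 3 or 4 genes are too small to be set against that share.

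Among the branch enzymes, GLUD1 and ME1 had 2 intervals each. GLUD1 encodes glutamate dehydrogenase, which links glutamate to 2-oxoglutarate. An interval of 723 bp at chr10:87094586-87095308 spanned its start and was listed on 4 lines with scores from 17 to 37. This interval overlapped SHLD2, with an end of SHLD2 within 1 kb. The other GLUD1 interval, at chr10:87095437-87095715, scored 37 and was farther upstream, from 872 to 594 bp before the start. It lay outside GLUD1 and also overlapped SHLD2. Neither GLUD1 interval can therefore be assigned to GLUD1 alone, although an end of GLUD1 was the nearest coding gene end to both. ME1 encodes the cytosolic malic enzyme, which produces NADPH from malate. Its intervals on chromosome 6 flanked the start. The interval at chr6:83431066-83431358 scored 39 and ended 15 bp before the start, while that at chr6:83430339-83430538 scored 22 and lay from 513 to 712 bp inside the gene.

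The last intervals had low scores. ME3, a mitochondrial malic enzyme, had an interval of score 21 at chr11:86671878-86672087, from 529 to 738 bp inside the gene. IDH1, the cytosolic NADP-dependent isocitrate dehydrogenase, had an interval of score 17 at chr2:208255254-208255463. This interval lay 183 bp outside the gene, from 1005 to 796 bp before the annotated start, and overlapped IDH1-AS1. ACLY, which cleaves exported citrate to cytosolic acetyl-CoA for lipid synthesis, had an interval of score 17 at chr17:41918049-41918353. It was 12344 bp from the nearer gene end and was therefore counted in the body. The annotated start used for the promoter sequences lies 11523 bp inside the ACLY gene, however, and the midpoint was 821 bp downstream of that start. ACO1, IDH2, MDH1 and ME2 had none. Thus the cytosolic IDH1 but not the mitochondrial IDH2, and ME1 and ME3 but not ME2, had an interval. The IDH1 interval was lost with a score of at least 20 and the ME3 interval with a score of at least 30. As 19.5% of all protein-coding genes had an interval, families of 2 or 3 genes are too small to be set against that share.

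**Figure D2:**
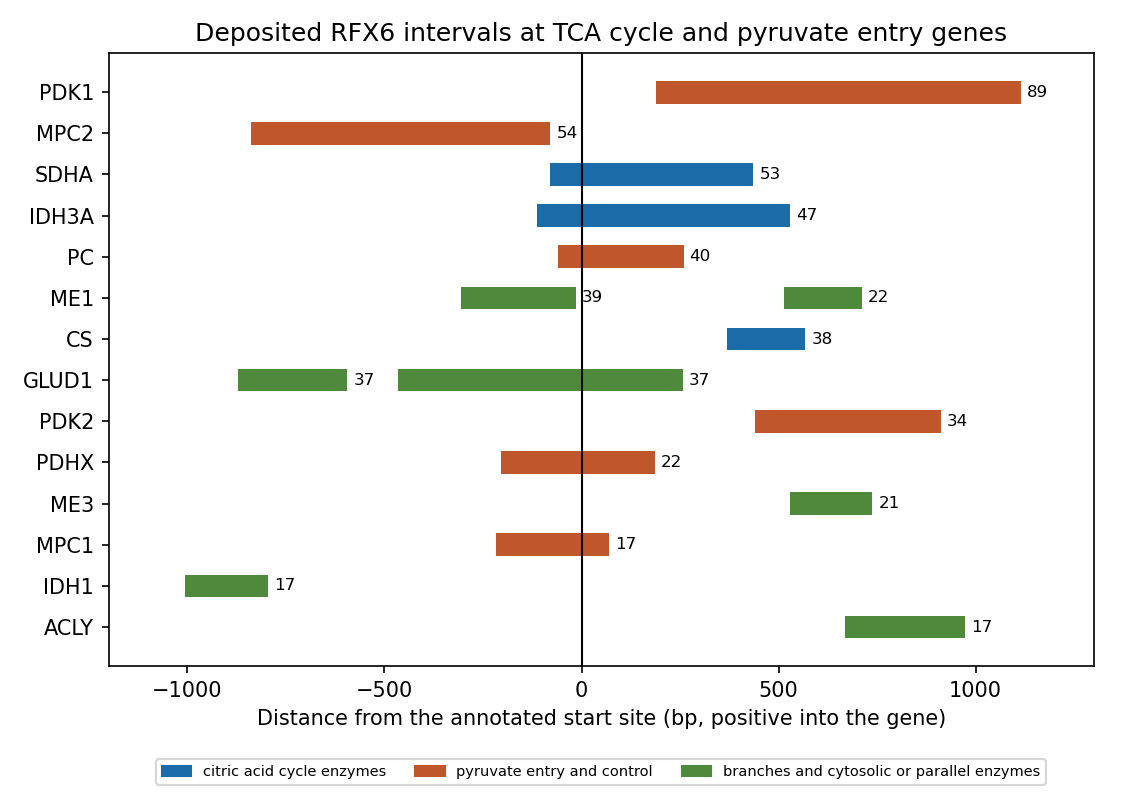
Horizontal bars show the 16 intervals at the 14 genes with an annotated start, drawn to scale by distance in bp from that start (vertical line, positive into the gene), with the highest score printed beside each and colours for the role groups. Of the 16 intervals, 6 spanned the start, and the midpoints ran from 900.5 bp before it (IDH1) to 821 bp after it (ACLY).

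The intervals were all at the start side of the genes where this could be told. An annotated start was given for 33 of the 36 genes, not for OGDH, SDHC and PDP1. Of the 33 genes, 14 (42.4%) had an interval with its midpoint within 1 kb of the start, compared with 15.3% of all protein-coding genes with a start. None of the 33 had an interval at the far end, and neither did most other genes (1.05% had one). Relative to the start, 9 midpoints were downstream and 7 were upstream, so 56.2% were downstream, close to 58.8% over the 2782 pairs of a gene and an interval at its start in the whole list. The start itself was covered by 37.5% of the intervals, compared with 38.5% in the whole list. The median distance of the midpoint from the start was 463.25 bp, larger than the 196.5 bp in the whole list. The single intervals at PDK1, PDK2, ME3, CS, MPC2, IDH1 and ACLY, both at ME1 and the upstream one at GLUD1 did not reach the start.

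**Figure D3:**
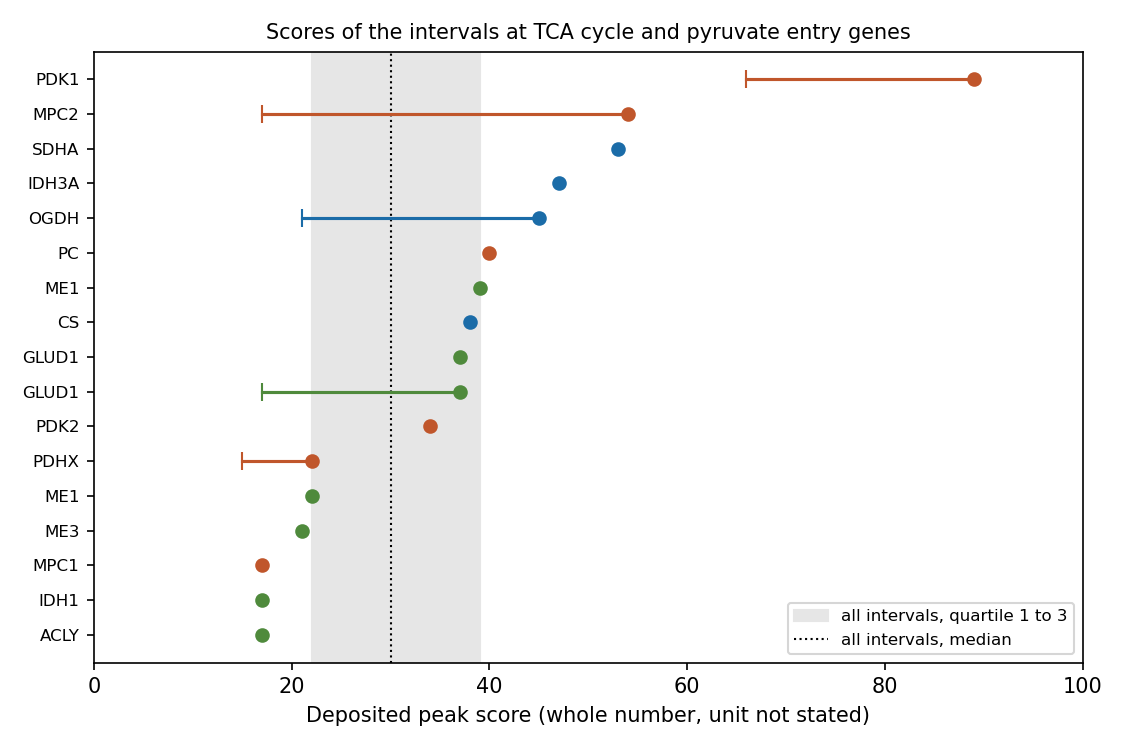
Points show the highest deposited score of each of the 17 intervals at the 15 genes (blue, cycle enzymes, orange, pyruvate entry and control, green, branch enzymes), a line with a tick reaches down to the lowest score where lines of an interval differed, and the grey band and dotted line give the quartiles (22 and 39) and median (30) of all intervals. PDK1 stood apart at 89, and the intervals of MPC1, IDH1 and ACLY were lowest at 17.

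The 17 intervals had a median score of 37, compared with 30 over the list, and 11 of the 17 scored at least 30. PDK1 alone scored above at least 90% of the list. Per gene, the highest score at a gene end had a median of 38.5 in the 14 genes and of 33 in all 3100 protein-coding genes with such an interval, whose quartiles were 26 and 45. The scores of the 14 genes ran from 17 to 89. A score of at least 30 was reached by 71.4% of the 14 genes and by 61.4% of the 3100 genes. The widths of the 17 intervals had a median of 320 bp and ranged from 200 to 926 bp, compared with a median of 272 bp over the list.

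For the 21 genes without an interval, the distance to the nearest one was read. The nearest interval was 6.86 kb from SDHB, on the side of ATP13A2, and 19.2 kb from DLST. For the other 19 it was more than 25 kb away, and for 15 more than 100 kb, with a median of 234 kb over the 21 genes. The largest distance was 9030 kb, at SUCLG2 on chromosome 3. The same distances were not taken for other genes without an interval, so nothing particular to these 21 genes can be read from them. As the depth is unknown, the absence of an interval may also reflect too few reads at the gene. Genes with an interval had a median length of 50427 bp and those without of 22153 bp, against 24115 bp for all protein-coding genes. The part of gene length in the counts was not tested.

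SDHA, GLUD1 and PDPR are among the genes with near copies elsewhere in the genome, and how reads with several matches were handled is not stated. No interval was found at SDHAP1, SDHAP2, SDHAP3, SDHAP4, PDPR2P, the annotated GLUD1 pseudogenes or the protein-coding relative GLUD2.

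To see the sequence at these starts, the part of the 250 bases before the annotated start that an interval covered was read from RefSeq promoter windows (GRCh38.p14). Such windows run from 250 bases before to 50 bases after the start and matched 33 of the 36 genes. GLUD1 and MPC2 are shown because an RFX site (GTTGCC or GTTACC, on either strand) lies under their interval, and IDH3A and SDHA because they had the highest scores among intervals spanning a start. Capitals mark matches to the searched motifs, here the RFX site, the GC box (GGGCGG) and the CCAAT box (CCAAT), each on either strand.
MPC2 (chr1:167936075-167936246, minus strand): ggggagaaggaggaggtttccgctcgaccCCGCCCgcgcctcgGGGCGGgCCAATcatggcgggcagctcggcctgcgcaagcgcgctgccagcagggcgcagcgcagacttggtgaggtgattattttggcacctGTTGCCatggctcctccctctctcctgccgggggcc
GLUD1 (chr10:87094844-87095093, minus strand): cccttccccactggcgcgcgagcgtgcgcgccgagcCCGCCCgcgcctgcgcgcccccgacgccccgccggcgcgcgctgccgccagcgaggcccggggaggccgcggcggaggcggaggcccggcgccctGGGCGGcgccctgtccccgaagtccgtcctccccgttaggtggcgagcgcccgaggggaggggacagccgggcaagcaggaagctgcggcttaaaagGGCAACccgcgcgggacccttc
IDH3A (chr15:78149248-78149361, plus strand): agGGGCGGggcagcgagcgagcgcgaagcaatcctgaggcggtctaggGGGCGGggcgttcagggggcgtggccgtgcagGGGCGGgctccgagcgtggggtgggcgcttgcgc
SDHA (chr5:218239-218319, plus strand): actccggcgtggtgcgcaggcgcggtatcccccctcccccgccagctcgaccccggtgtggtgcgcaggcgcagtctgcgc

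At MPC2, the RFX site GTTGCC lay from 114 to 109 bases before the start. At GLUD1, the site on the other strand (GGCAAC) lay from 22 to 17 bases before the start. The SDHA window also held GGCAAC, from 23 to 28 bases after the start and inside the interval, while the printed part before the start held no match. IDH3A had 3 GC boxes under its interval and no RFX site. In total, the RFX site was found in 5 of the 14 windows of genes with an interval at the start (35.7%) and in 4 of the 19 windows without (21.1%). It was found in 17.6% of all 15842 protein-coding windows and in 16.0% of those with an interval at the start. At IDH1 and ME3, the site was in the window but outside the interval.

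RFX proteins are known to bind as dimers to the X-box, a pair of such sites in inverted order. The searched form was GTTGCC or GTTACC followed by GGCAAC or GGTAAC, in any combination, with 0 to 3 bases between, and it was found in 51 of the 15842 windows (0.322%). Of those 51 genes, 7 (13.7%) had an interval at the start, near the 15.3% of all genes. Among the 33 windows, only that of IDH2, the mitochondrial NADP-dependent isocitrate dehydrogenase, held it, and the nearest interval was 34.9 kb from IDH2. The annotated start of IDH2 used here lies 1847 bp inside the gene. The sequence is shown from 150 bases before the start, with the paired site in capitals, since it held the letters of an X-box and had no interval.
IDH2 (chr15:90100622-90100771, minus strand): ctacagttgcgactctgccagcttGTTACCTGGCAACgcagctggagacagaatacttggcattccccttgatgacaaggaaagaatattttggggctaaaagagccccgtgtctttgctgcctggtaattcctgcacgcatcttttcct

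The GC box was found in 10 of the 14 windows with an interval (71.4%) and in 11 of the 19 without (57.9%), compared with 58.5% of all windows and 79.8% of all windows with an interval at the start. The CCAAT box was found in 57.1% and 57.9% of the member windows with and without an interval and in 36.4% of all windows, and in 37.0% of all windows with an interval at the start. The searched motif of ETS factors (CCGGAAGT) was in none of the 14 windows with an interval and in 4 of the 19 without, namely DLST, IDH3B, MDH2 and SDHD, compared with 6.19% of all windows and 9.82% of all windows with an interval at the start. The NRF1 motif (GCGCATGCG), known from promoters of respiratory genes, was found in SDHD alone and the YY1 motif (AAGATGGCG) in SDHB and SUCLG2, all without an interval. They were in 2.76% and 2.74% of all windows, and in 4.46% and 4.33% of all windows with an interval at the start. An E-box (CACGTG) was in ME3, OGDHL and PDP2, in 8.88% of all windows and in 11.3% of those with an interval at the start. A match of letters is a description and not a binding site.

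In base composition, the windows of the 14 genes with an interval at the start had a median GC content of 70.7% (range 36.3% to 77.3%), and those of the 19 without had 66.7% (range 43.3% to 76.3%). The ranges overlapped almost fully. Over all protein-coding genes the medians were 68.7% with an interval and 61.3% without. The ratio of observed to expected CpG was 0.805 and 0.806 in the 2 groups of windows, compared with 0.878 and 0.725 over all genes. The lowest GC content among the 14, 36.3%, was that of PDK1, the gene with the highest score, whose interval lay outside the window.

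**Figure D4:**
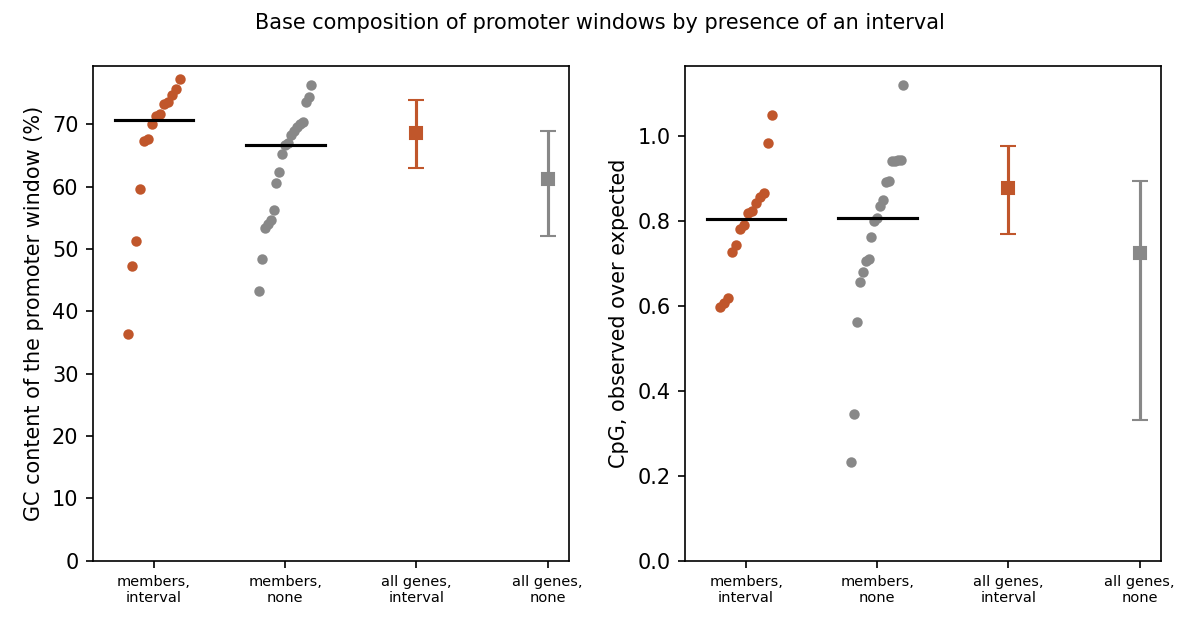
Points show each gene's promoter window (250 bases before to 50 after the annotated start), with black lines at the medians, and squares with bars show the median and quartiles over all protein-coding genes, for GC content in % (left) and the ratio of observed to expected CpG (right), by presence of an interval at the start. The member groups overlapped, with medians of 70.7% and 66.7% for GC content and of 0.805 and 0.806 for CpG.

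Other genes of the same pathways were looked up in the same way. Of 27 such genes, 5 had an interval at a gene end (18.5%, Wilson interval 8.18% to 36.7%), near the 15.5% of all protein-coding genes. The core of the pyruvate dehydrogenase complex (PDHA1, PDHB, DLAT and DLD), 4 genes in all, had none. These 4 genes were named after their values were seen. With 19.5% of all protein-coding genes having an interval, they are too few to be set against that share. LIPT2, which takes part in making the lipoyl cofactor of the dehydrogenase complexes, had scores of 64 and 44 at 2 intervals. LIAS, the lipoyl synthase, had a score of 28 at an interval that was nearest to RPL9. GOT2, the mitochondrial aspartate aminotransferase, had a score of 20. SDHAF2, an assembly factor of succinate dehydrogenase, had a score of 33 at an interval nearest to CPSF7. SIRT3, a mitochondrial deacetylase, had scores of 32 and 25 at 2 intervals, both with an end of PSMD13 within 1 kb. The interval of score 25 lay outside SIRT3, overlapped PSMD13 and was nearest to PSMD13.

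For comparison, 15 of 82 respiratory chain and ATP synthase genes (18.3%, 11.4% to 28.0%) and 6 of 48 mitochondrial carriers of the SLC25A family (12.5%, 5.86% to 24.7%) had an interval at a gene end. Both shares were near the 15.5% of all protein-coding genes. The share of the 36 genes was 38.9% (24.8% to 55.1%). These Wilson intervals cover the counting of genes alone, and their limits do not serve as a test. As the 36 genes were chosen with earlier results of these data known, the differences were not tested.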

How the data were processed

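ChIP-seq of HA-RFX6 in MHCC-97H cells gave 1 ChIP and 1 input library, grouped by their titles. The authors called peaks with MACS2 2.1.0.2, at a q value threshold of 0.01 per the methods, and deposited a headerless list with a whole-number score for each line. The meaning of the score, the aligner, and whether the input was the control are not given in the sources used here. The processing notes name GRCh37. Positions were read as GRCh38, since 60.8% of midpoints were within 1 kb of a coding gene end, against 7.65% when intervals were shifted 20 kb down and 8.11% when shifted 20 kb up.

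Of 6214 lines, 1 with digit separators was mended, and identical intervals were counted once (5022, of which 3 were mitochondrial and set aside). Starts were taken as 0-based and printed 1-based. Intervals were placed by midpoint in or within 1 kb of RefSeq genes (GRCh38.p14), 1 entry per coding symbol. Placement was tested on simulated data. Motifs were searched by exact letters. Of the list of other pathway genes, 3 are not reported here. All 36 genes are accounted for. Other pathway genes are named where they have an interval, and genes with an end near a member's interval are named. The core pyruvate dehydrogenase genes and the near copies without an interval were named after their values were seen. The genes and lists were chosen with earlier results of these data known. Alternatives were scores of at least 20 or 30, merging within 1 kb, windows of 2 and 5 kb, any overlap, nearest gene end and start end only. Python 3.11.15, numpy 2.4.6, pandas 2.3.3, scipy 1.17.1 and matplotlib 3.10.9 were used.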

Additional observations from a re-analysis of the deposited data

How the results depend on the processing

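The 15 genes with an interval were the same genes after merging of intervals within 1 kb, with windows of 2 kb and 5 kb, with any overlap in place of the midpoint and with the start end only. The wider windows and any overlap could only add genes, so no loss was possible there. With the start end only, OGDH, which has no annotated start, was counted by its body, and ACLY at its start. With a score of at least 20, 12 of them remained (MPC1, IDH1 and ACLY dropped out), and 17.3% of all coding genes had an interval. With a score of at least 30, 10 remained (ME3 and PDHX dropped out as well), against 12% of all coding genes. With each interval given to the nearest gene end only, 14 remained, without PDHX, against 16.7% of all coding genes. The number of genes with an interval in the body only was 1 (ACLY) and fell to 0 with a score of at least 20 and to 0 with a score of at least 30, where the shares of all coding genes were 3.51% and 2.52%. The number of other pathway genes with an interval was 5, and it was 3 with a score of at least 30 and 3 with the nearest gene end only. The number at a gene end ran from 10 to 14, while the share of all coding genes ran from 9.5% (score of at least 30) to 19.8% (window of 5 kb), and the median score of the intervals from 37 to 40, where the score thresholds raise the median by construction. No paired analysis was possible because the series holds a single ChIP library without a replicate, and for the same reason no replicate could be left out. The unknown read depth limits what absence of an interval can mean.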
